A study of Mus musculus with 7 samples.

Results

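This account covers 10 mouse genes of extracellular proteolysis: 8 matrix metalloproteinases (Mmp2, Mmp3, Mmp9, Mmp11, Mmp12, Mmp13, Mmp14 and Mmp23) and 2 of their tissue inhibitors (Timp1 and Timp2). Members were found by symbol, keeping every probe set annotated to exactly 1 of these genes. That gave 20 probe sets for all 10 genes on the design of the Sertoli and TM4 arrays, which names 18193 genes, and 15 probe sets for 9 genes, without Mmp23, on the design of the testis arrays, which names 8251. In all, 18336 genes were named on at least 1 of the 2 designs. The set itself was chosen by gene family after ratios from these same arrays were known, Mmp12 and Mmp13 in knockout Sertoli cells among them. The ratios below are therefore descriptions, and they are no independent evidence about the family.

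The arrays came from an ERM knockout mouse, ERM being the ETS family transcription factor encoded by Etv5, and the series concerns the loss of germline stem cells in that animal. Primary Sertoli cells, the somatic nurse cells of the seminiferous tubule, were taken from knockout mice at 10 weeks, from knockout mice at 4 weeks and from wild-type mice at 4 weeks. Whole testis came from knockout and from wild-type mice at 4 weeks, and TM4, a line derived from mouse Sertoli cells, was profiled with and without transfection of ERM. The sources used here give neither the strain, the knockout allele, the number of animals behind each RNA nor the duration of any Sertoli cell culture. Each of the 7 groups was 1 array, so there were no replicates, no difference had a replicate check, and no p-value could be given. Precision is limited by this number of arrays.

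Intensities were scaled so that each array had a trimmed mean of 500, and values below 100, called the floor here, were treated as too dim to rank. Where 1 of the compared arrays fell below the floor the ratio is a bound ("at least"), and where both did, none is given. Each gene is represented by its probe set with the highest mean over the arrays of its design. The one error estimate available was the standard deviation of log2 ratios between bright probe sets of the same gene on the same pair of arrays. It was 0.18 for 10-week knockout against wild-type Sertoli cells, 0.20 for 4-week knockout against wild type, 0.25 between the knockout ages, 0.25 in testis, 0.15 in TM4 with against without ERM and 0.46 for wild-type Sertoli cells against TM4. It covers probe sets and not animals. On the Sertoli arrays all 14 measured Sertoli marker genes reached the floor in 4-week knockout and wild-type cells, and 13 did in 10-week knockout cells, Espn being the exception. Of all probe sets 73.0%, 72.0% and 73.8% did in 10-week knockout, 4-week knockout and wild-type cells. In TM4 without ERM 2 of the 14 were below the floor, Sox9 and Wt1, regulators that define Sertoli cells. With ERM 2 were, Wt1 and Fshr, while Sox9 read 150. Reaching the floor thus hardly separated these cell sources. Etv5 was not lower on an array labelled knockout: 1428142_at read 995 at 10 weeks and 910 at 4 weeks in knockout cells, against 710 in wild-type cells. The part of the gene that the allele removes is not given here, so these values do not check the labels. The array labelled knockout at 4 weeks carried an 18S ribosomal RNA 5' control signal of 4551, against 352 in 10-week knockout and 349 in wild-type cells.

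Matrix metalloproteinases are zinc enzymes that cut collagens, laminins, elastin and other matrix proteins, and they also trim or release cytokines and growth factors. Most are secreted as inactive proenzymes. Tissue inhibitors bind the active site of the opened enzyme, and Timp2 also takes part, together with the membrane protease Mmp14, in activating the proenzyme of Mmp2. In the seminiferous tubule these enzymes act on the basement membrane and at the junctions between Sertoli cells, across which germ cells move as they develop.

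Mmp13, Mmp12 and Mmp3 lie in one run of neighbouring metalloproteinase genes on chromosome 9. Their 250 bases before the start of transcription are shown with those of Timp1 and Timp2, since Mmp13 and Mmp12 were the members furthest below wild type in 4-week knockout Sertoli cells, while Timp1 and Timp2 had higher or nearly equal levels there. Capitals mark AGGAAG, the core of the site bound by the PEA3 subgroup of ETS factors to which ERM belongs, and TGANTCA, the site of AP-1 (Fos and Jun), both searched on both strands. The sequences are from RefSeq, build GRCm38.p6. Mmp12 has a pair of annotated starts there, and both windows are printed.
Mmp12, chr9:7347124-7347373, plus strand: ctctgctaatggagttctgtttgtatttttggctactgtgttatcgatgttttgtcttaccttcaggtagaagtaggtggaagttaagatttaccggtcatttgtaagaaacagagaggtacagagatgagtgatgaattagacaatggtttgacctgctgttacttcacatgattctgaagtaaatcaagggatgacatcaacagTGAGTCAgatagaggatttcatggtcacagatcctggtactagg
Mmp12, upstream start, chr9:7344147-7344396, plus strand: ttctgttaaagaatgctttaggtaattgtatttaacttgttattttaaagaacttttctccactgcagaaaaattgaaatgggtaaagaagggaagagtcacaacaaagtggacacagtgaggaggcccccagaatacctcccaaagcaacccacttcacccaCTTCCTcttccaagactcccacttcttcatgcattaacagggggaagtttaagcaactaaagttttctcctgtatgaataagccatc
Mmp13, chr9:7272264-7272513, plus strand: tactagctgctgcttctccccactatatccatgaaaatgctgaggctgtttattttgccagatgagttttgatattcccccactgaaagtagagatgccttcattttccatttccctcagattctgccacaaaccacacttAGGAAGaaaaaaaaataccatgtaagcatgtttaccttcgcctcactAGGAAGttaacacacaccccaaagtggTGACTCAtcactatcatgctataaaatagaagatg
Mmp3, chr9:7445572-7445821, plus strand: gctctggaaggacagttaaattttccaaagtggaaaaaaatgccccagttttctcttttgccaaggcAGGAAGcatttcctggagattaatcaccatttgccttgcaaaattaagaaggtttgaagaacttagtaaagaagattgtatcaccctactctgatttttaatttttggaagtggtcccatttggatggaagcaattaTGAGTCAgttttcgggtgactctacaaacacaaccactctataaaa
Timp1, chrX:20869916-20870165, plus strand: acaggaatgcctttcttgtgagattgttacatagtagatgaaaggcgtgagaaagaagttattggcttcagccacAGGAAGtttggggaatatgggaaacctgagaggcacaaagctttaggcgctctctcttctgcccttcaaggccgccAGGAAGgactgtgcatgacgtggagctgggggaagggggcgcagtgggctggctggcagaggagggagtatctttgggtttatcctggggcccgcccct
Timp2, chr11:118355412-118355661, minus strand: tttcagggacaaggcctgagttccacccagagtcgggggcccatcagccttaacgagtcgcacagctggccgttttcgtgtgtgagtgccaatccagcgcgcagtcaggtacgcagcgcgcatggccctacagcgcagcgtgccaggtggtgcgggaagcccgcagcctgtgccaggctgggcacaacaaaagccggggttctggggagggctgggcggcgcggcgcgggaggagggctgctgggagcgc

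AGGAAG was present in 29.5% and TGANTCA in 6.75% of the 32851 promoter windows of this length in the table, and 1.98% held both. Among the windows printed, Mmp13 and Mmp3 held both. In Mmp13, AGGAAG began 109 and 62 bases before the start and TGANTCA 35 bases before it. In Mmp3, AGGAAG began 183 bases and TGANTCA 46 bases before the start. The downstream Mmp12 window held TGANTCA at 44 bases and no AGGAAG, and the upstream one held AGGAAG, on the opposite strand, at 87 bases and no TGANTCA. Timp1 held AGGAAG at 175 and 99 bases and no TGANTCA, and Timp2 held neither. These matches are descriptions of letters in a window and not of binding. Of the 10 members 8 had a promoter entry, with 10 windows in all. Of these windows 5 held AGGAAG, 3 held TGANTCA and 2 held both. Among those not printed, the Mmp14 window held AGGAAG at 209 bases and no TGANTCA, and the Mmp11 and Mmp23 windows held neither. The printed windows were chosen by the ratios of their genes, so a link between sites and ratios was not tested.

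In Sertoli cells at 4 weeks, Mmp12, the macrophage elastase, and Mmp13, the main interstitial collagenase of rodents, were lower in knockout than in wild-type cells. Of the 10 members 2 were at least 2-fold lower and none was at least 2-fold higher, where 3.18% and 0.681% of the 15860 genes measured were. Since the set was assembled with this comparison known, nothing is read from that excess. The median log2 ratio was -0.34 over the members and -0.02 over all genes.

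Mmp12 (1449153_at) had a scaled intensity of 601 in knockout cells at 10 weeks and 211 in knockout cells at 4 weeks, against 2681 in wild-type cells. In TM4 it read 71.0 with ERM and 35.0 without, both below the floor. Its order over the arrays was thus wild type, 10-week knockout, 4-week knockout and then TM4 unranked, and every step between Sertoli arrays was past 2-fold. It was 12.7-fold lower at 4 weeks and 4.46-fold lower at 10 weeks than in wild type, and between the knockout ages it was 2.85-fold higher at 10 weeks.

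Mmp13 (1417256_at) read 123 in 10-week and 33.9 in 4-week knockout cells, against 356 in wild-type cells, with 45.8 in TM4 with ERM and 26.2 without. It had the same order as Mmp12 among Sertoli cells at a much dimmer signal, so that the 4-week knockout and both TM4 arrays lay below the floor. The decrease was at least 3.56-fold at 4 weeks and 2.90-fold at 10 weeks. Because Mmp13 passed the floor at 4 weeks through the wild-type array alone, it could be seen there in 1 direction and no other.

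Mmp3, stromelysin-1, which cleaves matrix and activates other proenzymes, was close to the limit of detection. It read 83.4 in 10-week and 76.7 in 4-week knockout cells, against 142 in wild-type cells, and 49.5 and 59.7 in TM4 with and without ERM. Wild type was the one array at which it reached the floor, which makes it at least 1.42-fold lower in knockout cells at either age.

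The 3 genes stand in a run of 10 consecutive metalloproteinase genes on chromosome 9, in the order Mmp13, Mmp12, Mmp1b, Mmp3, Mmp1a, Mmp10, Mmp8, Mmp27, Mmp20 and Mmp7. A probe set was present for 9 of them, and 7 reached the floor on at least 1 Sertoli array. Mmp10, a second stromelysin, read 205 in 4-week knockout and 208 in wild-type cells. Mmp7, matrilysin, read 182 in 4-week knockout and 107 in wild-type cells, a log2 ratio of 0.76. Mmp8, the neutrophil collagenase, had 93.6, below the floor, in 4-week knockout cells and 111 in wild-type cells. The 2 largest differences in the run were therefore those of the adjacent genes Mmp13 and Mmp12, and the genes beyond them did not share their direction throughout.

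**Figure D1:**
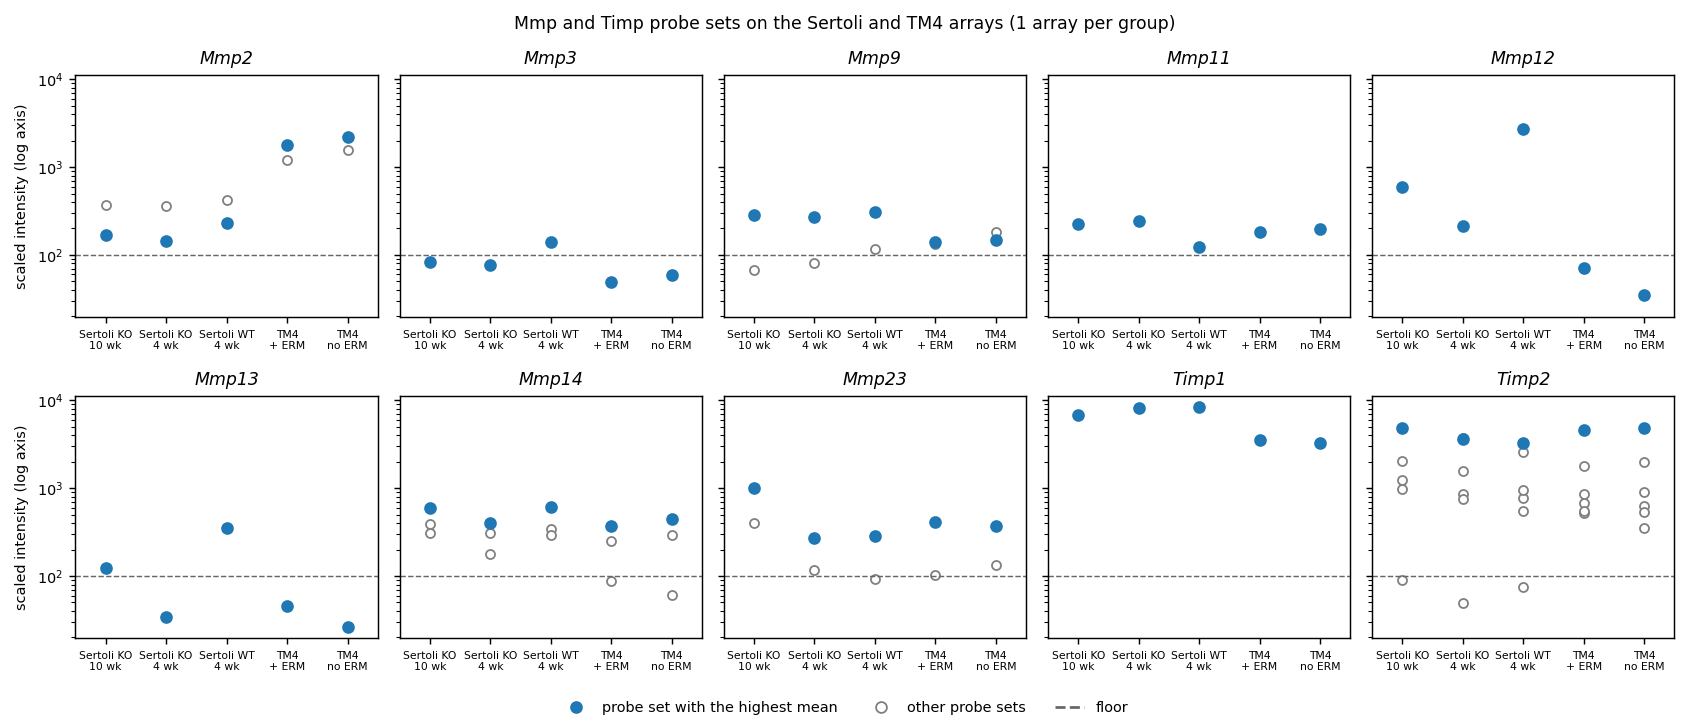
Scaled intensity (log axis) of every member probe set on the 5 Sertoli and TM4 arrays, 1 array per group, with the floor of 100 as a dashed line. Mmp12 and Mmp13 are highest in wild-type Sertoli cells and below the floor in TM4, Mmp23 stands out at 10 weeks, and Mmp2 is highest in TM4.

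The gelatinases Mmp2 and Mmp9, which cut denatured collagen and the type IV collagen of basement membranes, had no ratio past 2-fold between Sertoli arrays. Mmp2 (1439364_a_at) read 170 in 10-week and 143 in 4-week knockout cells, against 229 in wild-type cells. Its log2 ratios to wild type were -0.42 and -0.68, and -0.16 and -0.20 on its other probe set, 1416136_at. Both probe sets were thus lower in knockout cells at both ages, within 2-fold. The ratios of 1439364_a_at were beyond the spread between probe sets, 0.18 at 10 weeks and 0.20 at 4 weeks, and those of 1416136_at were within it. Mmp9 (1416298_at) read 287 in 10-week and 274 in 4-week knockout cells, against 309 in wild-type cells. These 3 values lie within the spread between probe sets of one gene and are not ranked here. The dimmer probe set 1448291_at read 67.7 in 10-week and 81.2 in 4-week knockout cells, both below the floor, against 117 in wild-type cells, at least 1.17-fold lower.

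Mmp11, stromelysin-3, a protease activated inside the cell by furin, was higher in knockout cells and close to the 2-fold line. It read 225 in 10-week and 246 in 4-week knockout cells, against 124 in wild-type cells, which is 1.81-fold and 1.98-fold. The 2 knockout arrays differed by less than the spread between probe sets. With quantile normalization the 4-week log2 ratio was 1.06, past 2-fold, so that 1 member was higher and 2 were lower under that scaling. Mmp11 has a single probe set and TM4 read 180 with and 199 without ERM.

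Mmp14, the membrane-type metalloproteinase that activates pro-Mmp2 at the cell surface, had probe sets that disagreed. On 1448383_at it read 597 in 10-week and 404 in 4-week knockout cells, against 603 in wild-type cells. At 4 weeks the log2 ratios to wild type were -0.58 on this probe set, -0.93 on 1416572_at and 0.06 on 1440920_at. At 10 weeks they were -0.02, -0.14 and 0.39. Between the knockout ages all 3 probe sets were higher at 10 weeks, by 0.33 to 0.80 in log2, while no direction against wild type was shared by all 3.

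In 10-week knockout Sertoli cells Mmp23 joined the members past 2-fold, on the higher side. Mmp23 is a membrane-anchored metalloproteinase that carries a cysteine-rich domain and an immunoglobulin-like domain in place of the usual hemopexin domain. On 1417282_at it read 993 in 10-week and 271 in 4-week knockout cells, against 285 in wild-type cells, and 417 and 372 in TM4 with and without ERM. Its second probe set, 1417281_a_at, read 405 in 10-week and 118 in 4-week knockout cells, against 91.9, below the floor, in wild-type cells. Both probe sets thus placed the 10-week array alone at a high level. The ratio to the 4-week knockout was 3.67-fold on 1417282_at and 3.42-fold on 1417281_a_at, and to wild type 3.48-fold and at least 4.05-fold.

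Against wild type at 4 weeks, the 10-week knockout array had 1 of 10 members on the higher side of 2-fold and 2 on the lower side, where 1.62% and 4.22% of all genes measured were. Against the 4-week knockout array 2 of the 9 members measured, Mmp12 and Mmp23, were at least 2-fold higher and none lower, where 4.19% and 3.51% of genes were. The comparisons share arrays, so their values are set side by side and not counted as separate support. No wild-type Sertoli cells of 10 weeks are among the samples, so that age and genotype cannot be told apart in the comparison of the 10-week array with wild type.

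**Figure D2:**
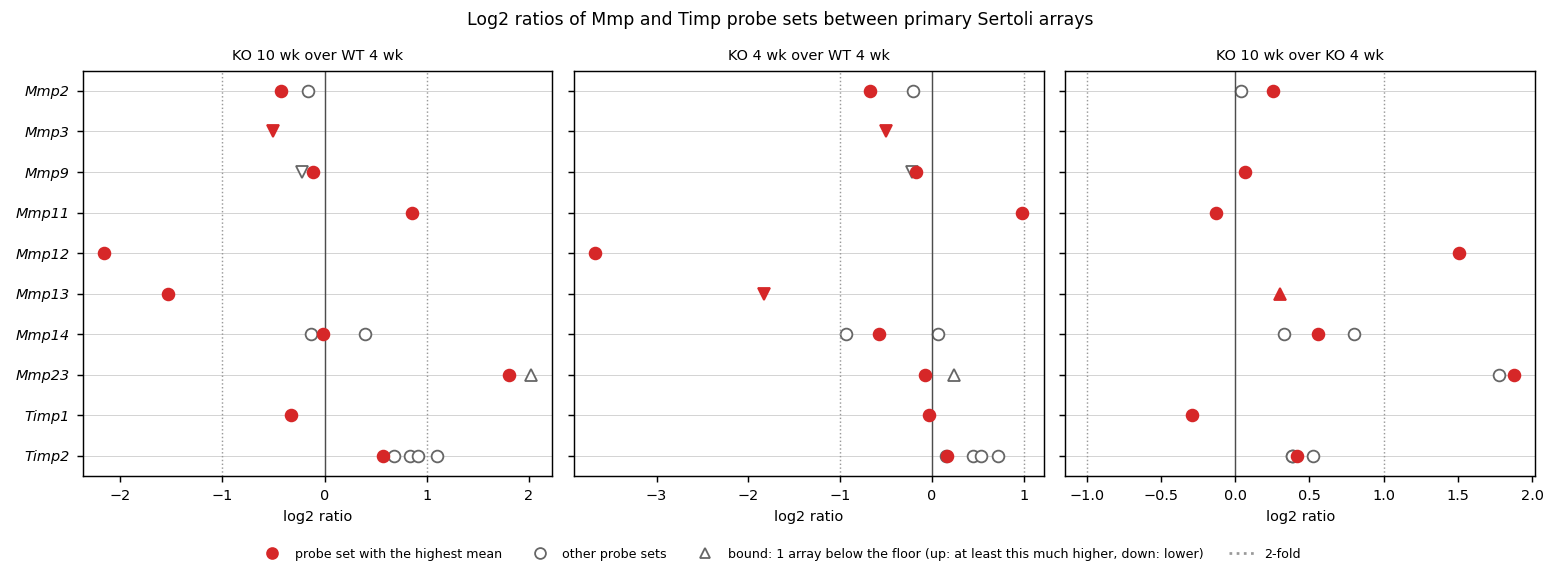
Log2 ratios of all measured member probe sets for 10-week knockout over wild type, 4-week knockout over wild type, and 10-week over 4-week knockout Sertoli cells, with 2-fold as dotted lines and bounds as triangles (the horizontal scale differs between panels). Mmp12 and Mmp13 lie left of the line in both knockout to wild-type panels, Mmp23 lies right of it in the 2 panels with the 10-week array, and 5 Timp2 probe sets lie right of 0 in every panel.

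Of the inhibitors, Timp2 was modestly higher in knockout Sertoli cells on 5 of its 6 probe sets. On 1460287_at it read 4824 in 10-week and 3616 in 4-week knockout cells, against 3235 in wild-type cells. On 1454677_at it read 4860 and 3735 in 10-week and 4-week knockout cells, against 2581 in wild-type cells. On 1433662_s_at it read 2054 and 1572, against 956. On each of the 5 probe sets the 10-week array was highest, the 4-week knockout array next and wild type lowest. The log2 ratios to wild type ranged from 0.15 to 0.72 at 4 weeks and from 0.58 to 1.10 at 10 weeks, and those between the knockout ages from 0.38 to 0.52. One ratio, of 1433662_s_at at 10 weeks (2.15-fold), was past 2-fold. The remaining probe set, 1437081_at, was below the floor on all 3 Sertoli arrays.

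Timp1, a secreted inhibitor of most soluble metalloproteinases, did not follow Timp2. Its one probe set, 1460227_at, read 6755 in 10-week and 8251 in 4-week knockout cells, against 8461 in wild-type cells. The 4-week ratio of -0.04 in log2 was within the spread between probe sets, and the 10-week ratio of -0.32 was beyond it and within 2-fold. Timp3, which binds to the matrix and is not one of the 10 members, was higher at 10 weeks on all 4 of its probe sets, by 2.48-fold to 2.87-fold against wild type. At 4 weeks its log2 ratios to wild type lay between -0.11 and 0.37.

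Markers of other cell types moved with these values, and their part in the results was not tested. In bulk RNA fewer cells of a type and less RNA per cell cannot be told apart. The 15 macrophage genes had a summed scaled intensity of 9393 in 10-week and 5776 in 4-week knockout cells, against 13155 in wild-type cells. That is 71.4% and 43.9% of wild type, while Mmp12 stood at 22.4% and 7.87%, in the same order. The sum stood at 34.2% of wild type in TM4 without ERM. This order held for the sum and not for every gene in it. Cd14 read 2766 in 10-week and 1144 in 4-week knockout cells, against 2049 in wild-type cells. Fcer1g read 416 and 123, against 372, and Aif1 139 and 222, against 198. Of 12 macrophage genes measured, 4 were at least 2-fold lower in 4-week knockout cells (Ctss, Lyz2, Fcer1g and Cd68) and none higher, with a median of -0.87. Among all genes measured, 3.18% were lower and 0.681% higher by that fold. Ctss, a lysosomal protease, read 1830 and 468 in 10-week and 4-week knockout cells, against 3801 in wild-type cells. Adgre1, which encodes the macrophage antigen F4/80, read 336 and 294, against 451, whereas Mrc1, the mannose receptor, read 360 and 513, against 470. Ptprc, Itgam and Cd163 were below the floor on all 3 arrays. In TM4, 76.3% of all probe sets reached the floor with ERM and 77.0% without. Mmp12 and Mmp13 were below the floor there. So were 6 of the 15 macrophage genes (Cd68, Ctss, Mrc1, Aif1, Itgam and Cd163), and 9 were not. Among those 9, Csf1r read 2561 in wild-type Sertoli cells and 1247 in TM4 without ERM, and Fcer1g and Ptprc were higher in TM4, at 372 and 38.8 in wild-type Sertoli cells and 773 and 301 in TM4.

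Fibroblast markers summed to 10596 in 10-week and 6293 in 4-week knockout cells, against 11304 in wild-type cells, with Lum, Thy1 and Fap below the floor throughout. Dcn, the brightest, read 6122 and 3027, against 6207. Col1a1 (365 and 455, against 349) and Col3a1 (248 and 359, against 953) did not follow the order of the sum. Neutrophil markers summed to 2576 and 3235, against 3292. Among them Camp read 387 and 1097, against 1197, whereas Mpo (452 and 419, against 339) and Elane (282 and 268, against 195) were higher. At 10 weeks germ cell markers were lower. Spermatocyte and spermatid genes summed to 4824 in 10-week and 25125 in 4-week knockout cells, against 26863 in wild-type cells. Of these genes 9 of 10 were at least 2-fold lower at 10 weeks than in wild type, beside 4.22% of all genes measured. The 4 Leydig genes on the array summed to 5541 and 3319, against 2159, and the 7 peritubular genes to 14343 and 10844, against 8829. The Leydig gene Hsd3b1 read 287 and 188, against 265. Acta2, the brightest peritubular gene, read 10026 and 7409, against 5799, and Myh11, Des, Actg2 and Mylk were also higher at both ages. Cnn1 (177 and 146, against 193) and Tagln (135 and 75.7, against 141) were lower. The higher Mmp23, Timp2 and Timp3 of the 10-week array came with these shifts in summed levels, whose part was not tested. Spermatogonial markers summed to 3482 and 5868, against 7093, endothelial markers to 1053 and 725, against 750, and Sertoli markers to 55505 and 61016, against 50495.

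**Figure D3:**
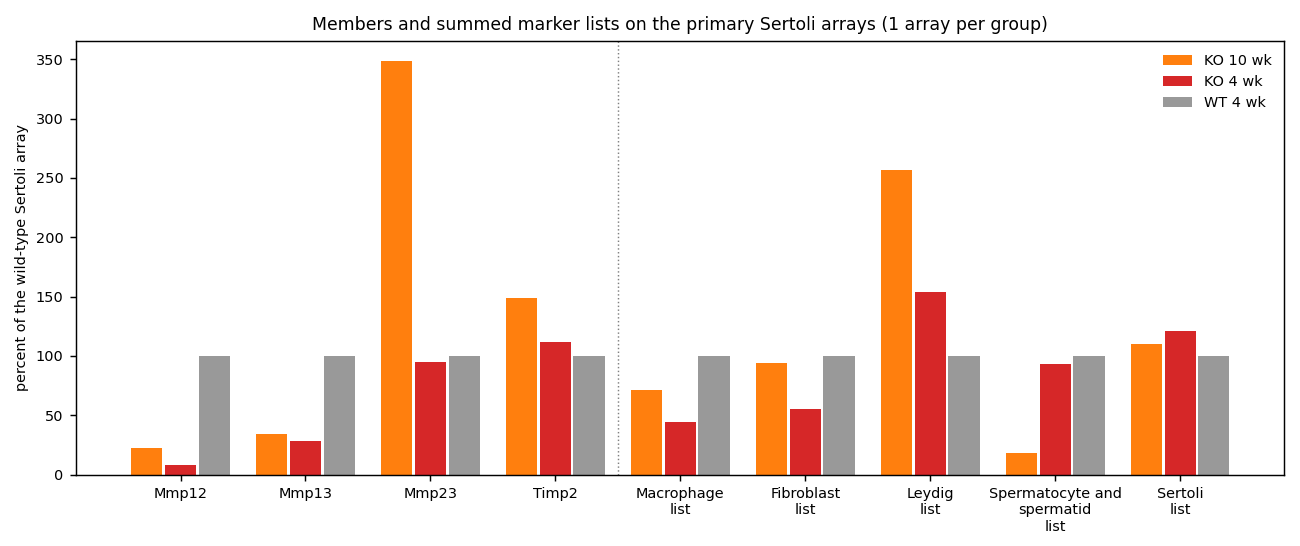
Mmp12, Mmp13, Mmp23 and Timp2 (probe set with the highest mean, left) and the summed intensity of 5 marker lists (right) on the 3 Sertoli arrays, each as a percent of the wild-type array. Mmp12 stands at 22.4% and 7.87% of wild type and the macrophage list at 71.4% and 43.9%. The sizes of these decreases are not compared, since that sum was still 34.2% of wild type in TM4 without ERM (not shown). Genes in the list differed: at 4 weeks Ctss read 468 in knockout and 3801 in wild-type cells, and Mrc1 513 and 470. The 4-week bar of Mmp13 is set at the floor and is an upper limit.

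In whole testis at 4 weeks no member was 2-fold apart. Of the 9 members on that design 8 were measured, none was at least 2-fold higher or lower, and among all genes 0.532% were higher and 0.852% lower. Timp2 was the largest ratio: 160116_at read 1114 in knockout and 627 in wild-type testis (1.78-fold), and 93507_at read 473 in knockout and 319 in wild-type testis (1.48-fold). Both are in the direction seen in Sertoli cells, and the third probe set was below the floor on both arrays. Mmp2 read 170 in knockout and 246 in wild-type testis, a log2 ratio of -0.53. Mmp14 read 906 in knockout and 740 in wild-type testis, a log2 ratio of 0.29. Mmp12 read 257 in knockout and 291 in wild-type testis on 95339_r_at, with its other probe set below the floor on both arrays, and Mmp13 was below the floor on both. Mmp3, Mmp11 and Timp1 differed by at most 0.07 in log2, and Mmp9 had a log2 ratio of -0.25 on 99957_at and was at least 1.52-fold lower on 162369_f_at (94.1 in knockout and 152 in wild-type testis). Cell type markers also differed in the knockout testis: the summed levels stood at 155% of wild type for fibroblast genes (Pdgfra 2.26-fold and Dcn 2.04-fold higher), 130% for Sertoli genes, 130% for macrophage genes and 61.0% for spermatogonial genes. Not every gene followed its sum. The fibroblast gene Thy1 read 234 in knockout and 360 in wild-type testis, and the Sertoli gene Amh 541 and 877. Among macrophage genes Aif1 read 1963 in knockout and 1064 in wild-type testis, and Adgre1 199 and 250. The part of these markers in the Timp2 ratio was not tested. Sertoli cells are a part of the whole testis, and the 2 array designs have different probe sets, so that no level is compared between them.

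In TM4 cells transfection with ERM was not accompanied by a 2-fold difference in any member. Of 7 members measured none was at least 2-fold higher or lower, where 0.303% and 0.421% of all genes were, and Mmp3, Mmp12 and Mmp13 were below the floor on both arrays. Mmp2 read 1799 with ERM and 2195 without on 1439364_a_at, and 1217 with ERM and 1564 without on 1416136_at. The log2 ratios of -0.29 and -0.36 exceed the spread between probe sets, 0.15, and Mmp2 was not alone in this. Mmp14 had -0.27 and -0.21 on its 2 measured probe sets, and Mmp9 had -0.45 and -0.08. The 2 probe sets of Mmp23 disagreed, at -0.38 and 0.17, and Mmp11 had -0.14, within the spread. Timp1 read 3560 with ERM and 3302 without, a log2 ratio of 0.11, which is within that spread. Timp2 had 3 probe sets higher and 3 lower with ERM, from -0.13 to 0.56. Etv5 itself had log2 ratios from 0.17 to 0.60 with ERM over without.

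Primary wild-type Sertoli cells differed from TM4 cells without ERM mainly in Mmp2, which was lower, and in Mmp12, Mmp13 and Timp1, which were higher. Of the 10 members 4 were at least 2-fold higher in Sertoli cells and 1 was lower, where 17.8% and 16.1% of all genes were. Mmp12 and Mmp13 were below the floor in TM4 (35.0 and 26.2), so they could be seen in 1 direction and no other. Since the set was chosen with ratios from these arrays known, nothing is read from the count. Mmp12 was at least 26.8-fold and Mmp13 at least 3.56-fold higher in Sertoli cells, and Timp1 was 2.56-fold higher. Mmp9 was 2.07-fold higher on 1416298_at and 1.55-fold lower on 1448291_at, so its direction is not settled. Mmp2 was lower in Sertoli cells on both probe sets, 9.61-fold on 1439364_a_at (229 against 2195) and 3.75-fold on 1416136_at (417 against 1564). Timp2 had a log2 ratio of -0.58 on 1460287_at and 0.39 on 1454677_at, and on 1437081_at the ratio was a bound past 2-fold, -1.81 or lower (74.7, below the floor, in Sertoli cells against 350 in TM4). Mmp14 was within 2-fold on 1448383_at and 1416572_at and at least 2.94-fold higher in Sertoli cells on 1440920_at (294 against 60.9). The spread between probe sets of one gene was widest in this comparison, at 0.46 in log2. This comparison depends on scaling: on the deposited scale, where the TM4 arrays are dimmer, the median of all genes was 0.65 in log2 rather than -0.08, 6098 genes were higher and 1151 lower in place of 3011 and 2718, and 6 members were higher and 1 lower. The log2 ratio of Mmp2 was then -2.56, and that of Timp2 on 1460287_at turned to 0.12.

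**Figure D4:**
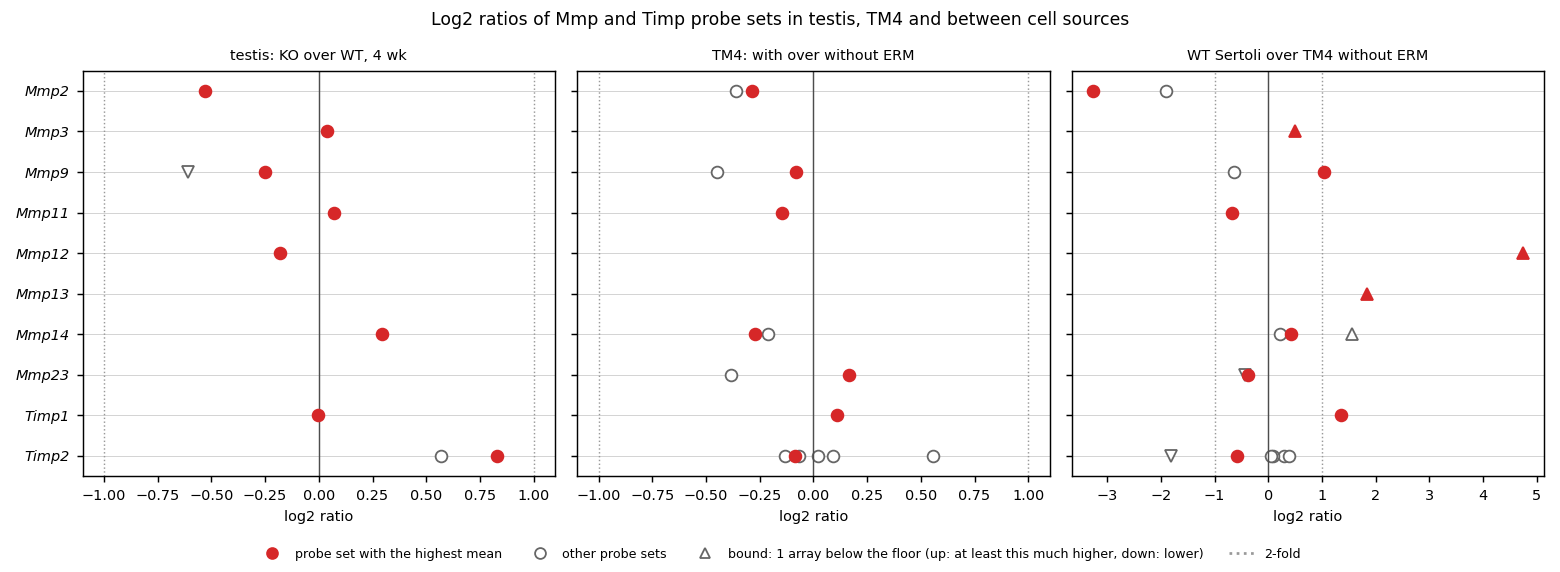
Log2 ratios of all measured member probe sets for knockout over wild-type testis, TM4 with over without ERM, and wild-type Sertoli cells over TM4 without ERM, with 2-fold as dotted lines and bounds as triangles (the horizontal scale differs between panels). In the testis and TM4 panels every probe set lies within 2-fold, whereas Mmp2 and Mmp12 lie far to opposite sides in the panel of Sertoli cells over TM4.

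Related genes were read from lists that were drawn up with earlier results of these arrays known. Of 7 other metalloproteinases measured in Sertoli cells none was past 2-fold at 4 weeks against wild type, and the same held for 7 at 10 weeks against wild type and for 7 between the knockout ages. Of 14 Adam and Adamts proteases 1 was at least 2-fold lower and none higher in 4-week knockout cells: Adam19, a membrane sheddase, read 70.2, below the floor, in knockout and 350 in wild-type cells. Among all genes measured, 3.18% were at least 2-fold lower and 0.681% higher in 4-week knockout than in wild-type cells. Between the knockout ages Adam19 and the aggrecanase Adamts4 (462 at 10 weeks, 148 at 4 weeks) were past 2-fold and higher at 10 weeks, beside 4.19% of all genes. Of 9 other inhibitors, Tfpi2, an inhibitor of serine proteases, was at least 2.36-fold lower at 4 weeks.

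Of 17 matrix substrates measured in 4-week knockout against wild-type cells, 4 were at least 2-fold lower and none higher, with a median of -0.32, beside 3.18% and 0.681% of all genes. Lamb1, a laminin chain, read 208 in knockout and 946 in wild-type cells. Bgn, the proteoglycan biglycan, read 485 in knockout and 1963 in wild-type cells. Col3a1 and Dcn, the proteoglycan decorin, were 2.65-fold and 2.05-fold lower. At 10 weeks Col3a1 was the one substrate past 2-fold, 3.84-fold lower than in wild type, and Bgn read 1800. Of 17 known inducers of metalloproteinase genes, 2 were at least 2-fold lower in 4-week knockout cells. Il6, an inflammatory cytokine, read 289 in 10-week and 329 in 4-week knockout cells, against 2039 in wild-type cells. Ets1, another ETS factor, read 3460 in 10-week and 798 in 4-week knockout cells, against 1642 in wild-type cells, so that it lay on opposite sides of wild type at the 2 ages. Among 13 activators measured at 4 weeks none was past 2-fold, and at 10 weeks Plat, the tissue plasminogen activator, was 2.17-fold higher than in wild type. In wild-type Sertoli cells against TM4 without ERM 12 of 19 substrates were at least 2-fold lower and 3 higher, beside 16.1% and 17.8% of all genes, and fibronectin (Fn1) had a log2 ratio of -5.55. In testis 1 related gene was past 2-fold, Dcn at 2.04-fold higher. In TM4 none was by its brightest probe set, but the Timp3 probe sets disagreed: 1449334_at read 330 with ERM and 78.8, below the floor, without, at least 3.30-fold higher, whereas 1419089_at read 313 with ERM and 283 without.

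The genes nearest in pattern were sought among 9867 bright genes, for the 3 members with the widest range over the 5 arrays. The measure was the root mean square difference of log2 intensity after subtracting each gene's mean. Values below the floor were first set to the floor. With 5 arrays many genes lie close, and the distances are descriptions. For Mmp12 the nearest were Cxcl3 (0.31), Apoe (0.32) and Cd36 (0.39). All of these, like Mmp12, were below the floor on both TM4 arrays, so those arrays were tied by the rule. For Mmp2 the nearest were Kif23 (0.08), Cdc6 (0.13) and Fam111a (0.14). Cdc6 read 17.3 in 10-week and 56.1 in 4-week knockout cells, both set to the floor, where Mmp2 read 170 and 143. For Mmp23 the nearest were Rasl10b (0.05), Mppe1 (0.11) and Zhx2 (0.12), and Rasl10b read 841 in 10-week and 236 in 4-week knockout cells, against 238 in wild-type cells.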

How the data were processed

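RNA of mouse testis, primary Sertoli cells and TM4 cells was measured on 7 single-colour Affymetrix arrays. The deposited tables hold 1 linear intensity per probe set and array, never negative, and the sources used here do not give the software or scaling behind them. The 5 Sertoli and TM4 arrays share 1 table and the 2 testis arrays another.

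Within each table the arrays were scaled to a trimmed mean of 500 (2nd to 98th percentile, controls left out), with a floor of 100. Probe sets naming exactly 1 gene were kept, 34945 and 10833, and 34741 and 10817 of these matched a GRCm38.p6 gene table, which changed no symbol. A gene was counted from a ratio of 2-fold on, by its probe set with the highest mean. Groups came from the sample labels. All members were named, related and marker genes came from fixed lists (up to 4 per list and comparison by size of the ratio), and patterns were matched by the rule given with them. Cell type list members named beside the results were chosen after their values were seen, as were Mmp10, Mmp7, Mmp8 and all probe sets of Timp3. The members and lists were chosen with earlier results of these data known. The alternatives were the deposited scale, centred ratios, quantile normalization, a lower and a higher floor (0.1 and 0.4 of the trimmed mean), averaging a gene's probe sets, and excluding those that may cross-hybridise. The ratio step was tested on simulated data. Python 3.11.15, numpy 2.4.6, pandas 2.3.3 and matplotlib 3.10.9 were used.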

Additional observations from a re-analysis of the deposited data

Results flagged for a closer look

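By its probe set with the highest mean, Mmp14 had ratios of opposite sign in the 2 tissues, in the contrast of knockout with wild type at 4 weeks. Each was beyond the standard deviation between probe sets of one gene, 0.20 in Sertoli cells and 0.25 in testis. The log2 ratio was -0.58 in Sertoli cells and 0.29 in whole testis. The difference was not tested, since each group was 1 array. In Sertoli cells 1 of the 3 Mmp14 probe sets had a ratio of 0.06, so the direction there is not settled.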

How the results depend on the processing

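No paired analysis was possible because each group had 1 array, and for the same reason no array could be left out within a group. Counts of members at least 2-fold apart stayed within 1.5 times under the 7 alternatives, with 2 exceptions. With the higher floor (0.4 of the trimmed mean) the count was 1 in 4-week knockout against wild-type Sertoli cells, where Mmp13 was lost and Mmp12 kept its ratio, and 3 in wild-type Sertoli cells against TM4. In both, the higher floor removes dim probe sets. No member past 2-fold changed sign, but 13 of the 369 log2 ratios of members recomputed did. Of the 369, 334 moved by less than the spread between probe sets, 16 moved away from 0 and 19 toward it. The 54 centred ratios among them could not have moved further. Centring shifts all ratios of a comparison by 1 amount, which was below the smallest spread, 0.15. Members under or near the floor, Mmp3 and Mmp13 above all, are limited by signal over background.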
